A study of Mus musculus with 4 samples.

Results

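The G2/M and mitotic genes described here are 60 genes whose products take a cell from G2 through mitosis, from the kinase Cdk1 and its cyclins to the kinetochore, condensin and the proteins that part the daughter cells. They were picked by gene symbol, and all 60 were found among the 16142 genes of the expression table. The table holds RNA-seq values for 4 libraries of splenic CD4+ T cells from mice, 2 labelled WT and 2 labelled R111A. R111A names a mutant of Regnase-1, the RNase encoded by Zc3h12a, that the protease MALT1 can no longer cleave at its usual site. The WT mice were B6. The R111A mice, on a C57BL/6 background, carried Cd4CreERT2 and LSL-R111A fl/fl, a transgene in the Rosa26 locus with a CAG promoter, a floxed STOP cassette and a P2A-linked EGFP, so that its expression needs Cre from the Cd4-driven transgene and tamoxifen. Tamoxifen was injected i.p. over 5 days at 75 mg/kg, which the methods state in a sentence that names both strains. Cre, EGFP and the transgene promoter therefore differ between the groups together with R111A. All 4 libraries came from CD4+ cells enriched with an untouched-cell bead kit and sorted by FACS, which then spent 12 h with anti-CD3 (5 µg/mL) and anti-CD28 (1 µg/mL). The study took mice of both sexes, aged 6–12 weeks except where it says otherwise, and the labels give neither age nor sex for these libraries. The labels also do not say whether the libraries of a group came from separate mice. If they did not, the p-values given here measure only the spread between these samples, which may be technical.

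Entry into mitosis rests on CDK1 bound to cyclin A or cyclin B, which the CDC25 phosphatases switch on and the kinases WEE1 and PKMYT1 hold back. The transcription factors FOXM1 and B-MYB, with the MuvB complex, drive many of the genes in G2 through a promoter element called the CHR, and in resting cells the DREAM complex holds the same genes down. Naive T cells are resting cells, and after stimulation through the T cell receptor and CD28 they grow for many hours in G1 before G2/M transcripts climb towards the first division.

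Values are FPKM, which scale reads by gene length and by library size, so levels of different genes can be set side by side, but how many reads a value rests on is unknown. FPKM summed to 801475 and 836143 in the WT libraries and to 1053551 and 1012215 in the R111A libraries. The 10 most abundant genes held 10.4% and 10.9% of the sum in WT, and 16.3% and 15.6% in R111A. Steps between low values put the depth of WT replicate 1 at roughly 1.06 and 1.19 times that of the first and the second R111A library, and level with the other WT library. Replicates were less alike in R111A than in WT. For 1938 genes whose mean reached 50 FPKM, the log2 ratio of 2 libraries had an SD (from the median absolute deviation) of 0.124 within WT and 0.316 within R111A, against 0.589 to 0.635 across the groups. Zc3h12a, the gene of the transgene, stood at 16.97 and 15.72 FPKM in WT and 196.30 and 130.87 FPKM in R111A. Both R111A libraries were above both WT libraries, by 10.0-fold in the mean, and R111A replicate 1 was the higher of the pair. The table does not separate reads of the transgene from reads of the endogenous gene.

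The label CD4+ T cell was read against marker genes. Of 8 T cell genes, 6 were in the table (Trac and Trbc2 were not), and they summed to 1445 FPKM in each WT library and to 1179.5 and 1127 FPKM in the R111A libraries. The most abundant was Cd3g, at 453.99 and 465.39 FPKM in WT and 288.70 and 312.87 FPKM in R111A. Cd4 itself stood at 157.54 and 131.28 FPKM in WT and 70.69 and 51.35 FPKM in R111A, a log2 change of -1.24 (adjusted p 5.68e-04, and 0.0514 with no filter on low values). Cd3d (205.01 and 213.72 FPKM in WT, 275.23 and 266.87 in R111A) had a log2 change of 0.37 (adjusted p 0.0294). Its log2 change was 0.04 under TPM, 0.34 without WT replicate 1 and 0.40 without WT replicate 2, each short of the adjusted p threshold. T cell transcripts were thus abundant in all 4 libraries, with Cd4 lower in both R111A libraries. Markers of other cells were low but moved with the groups. The 4 NK genes, all higher in both R111A libraries, summed to 1.15 and 0.42 FPKM in WT and 13.3 and 15.0 FPKM in R111A, nearly all of it Klrd1, with Ncr1 and Klrb1c under 1 FPKM throughout. The 4 erythroid genes summed to 0.66 and 0.44 FPKM in WT and 12.5 and 11.8 FPKM in R111A, with Hba-a1 the most abundant and Hbb-bs at 0 in all 4 libraries. The 7 myeloid genes, 5 of them higher in both R111A libraries, summed to 0.68 and 0.67 FPKM in WT and 6.76 and 4.26 FPKM in R111A, with Lyz2 the most abundant and S100a9 at 0 throughout. Among B cell genes, Cd79a stood at 0.32 and 0.24 FPKM in WT and 2.99 and 2.37 FPKM in R111A, while Ms4a1, Pax5 and Cd22 were under 1 FPKM in all 4. The 4 dendritic cell genes summed to between 1.53 and 2.06 FPKM, mostly Zbtb46, with Xcr1 at 0 in 3 libraries. The log2 changes were 3.05 for Klrd1 (1.00 and 0.40 FPKM in WT, 12.14 and 13.59 in R111A), 3.07 for Hba-a1 (0.66 and 0.44 FPKM in WT, 12.26 and 11.74 in R111A), 1.61 for Lyz2 (0.45 and 0.00 FPKM in WT, 3.01 and 2.37 in R111A) and 1.52 for Cd79a, each called higher. Zbtb46 (1.36 and 0.98 FPKM in WT, 1.83 and 1.84 in R111A) had a change of 0.39 (adjusted p 0.0515), which passed with median-of-ratios factors (0.0257), with the replicate block (0.0391) and with eBayes without trend (0.0476). Cd79b (1.15 and 0.24 FPKM in WT, 1.51 and 1.71 in R111A) had a change of 0.68 (adjusted p 0.0394), which missed the threshold without WT replicate 2 (0.384), without R111A replicate 1 (0.111), without R111A replicate 2 (0.160), under TPM (0.0701), under quantile normalization (0.134), with a pseudocount of 0.1 FPKM (0.0548) and with no filter (0.266).

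The 2 CD8+ T cell genes summed to 7.31 and 6.76 FPKM in WT and 3.88 and 4.46 FPKM in R111A, almost all Cd8b1, with Cd8a at most 0.20 FPKM. The change of Cd8b1 (7.21 and 6.56 FPKM in WT, 3.86 and 4.39 in R111A) was -0.62 (adjusted p 0.00662), and its adjusted p was 0.102 without WT replicate 1. The 5 Treg genes summed to 387 and 404 FPKM in WT and 199 and 209 FPKM in R111A, and 4 of the 5 were lower in both R111A libraries. Most of that gap came from Tnfrsf18, the most abundant in WT, at 192.45 and 210.76 FPKM in WT and 57.41 and 62.35 FPKM in R111A (log2 change -1.73, adjusted p 2.17e-05). The most abundant in R111A was Il2ra, at 140.21 and 136.12 FPKM in WT and 127.30 and 128.61 FPKM in R111A, a log2 change of -0.11 that missed the threshold and turned positive with median-of-ratios factors (0.02) and quantile normalization (0.13), while TPM gave -0.44 and passed (adjusted p 0.0111). Foxp3, the defining Treg factor, stood at 11.31 and 8.78 FPKM in WT and 2.86 and 1.86 FPKM in R111A. Ctla4 (38.94 and 44.32 FPKM in WT, 8.94 and 12.03 in R111A) had a change of -1.90 (adjusted p 4.61e-05). The part of any of these cell types in the results on the G2/M genes was not tested. The study's sorting method for mice with a GFP reporter gated GFP+ cells and then parted them by CD25 into Tregs and conventional T cells, but neither the labels nor the RNA-seq methods give the gates used for these libraries, so whether both groups were sorted alike is open. In a bulk sample, fewer cells of a type and less RNA per cell cannot be told apart.

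Before the comparison, the members spanned a wide range of levels. In WT, 5 of the 60 had a mean of at least 20 FPKM, 12 lay between 5 and 20, 33 between 1 and 5, and 10 under 1, and 0 were at 0 in any library. The median member was at 2.46 FPKM in WT and 1.40 FPKM in R111A, against 3.67 and 3.77 FPKM for the median gene of the whole table. Summed over the 60 members, FPKM came to 567 and 562 in WT and 358 and 406 in R111A, although FPKM summed over all genes was higher in R111A.

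The comparison of R111A with WT asks how the mutant changes expression in stimulated CD4+ T cells. It was made on log2(FPKM + 1) with limma over the 9831 genes whose mean reached 1 FPKM, and a gene was called where the change was at least 2-fold and the p adjusted over all genes tested was under 0.05. The added 1 makes these log2 changes smaller than the ratio of FPKM means for genes near 1 FPKM. With 2 libraries against 2, an exact permutation test of a single value cannot go below a two-sided p of 0.333, so the adjusted p rests on the spread that limma pools over genes. Of the 60 members, 47 were tested. Of these, 19 were called lower in R111A, where 8.34% of all genes tested were (820 genes), and 1 was called higher, where 8.52% were (838 genes). The split of all genes depends on scaling: it was 1749 lower and 583 higher after rescaling to TPM, and 612 lower and 975 higher with median-of-ratios factors. By the adjusted p alone, 32 members were lower, against 32.1% of all genes, and 3 were higher, against 21.2% of all genes. The other 12 tested members missed the threshold. The median log2 change of the tested members was -0.69 (range -2.34 to 1.19), and that of all genes tested was -0.12. Rescaling to TPM moved the median of all genes by -0.30, and the members' median then lay -0.55 from it, where it lay -0.58 from it before.

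These counts describe the members that passed the filter, and the filter favours some of them. For 34 of the 47 both group means were at least 1 FPKM, while 12 passed only through the WT mean (Cdk1, Ccna2, Ccnb1, Aurkb, Cenph, Nuf2, Spc24, Ncapg, Mki67, Cdca5, Cdca3 and Ect2) and 1 only through the R111A mean (Ccnb2), and those 13 had to differ to pass. Of the 19 called lower, 12 had both means at least 1 FPKM (12 of 34, where 8.09% of the 9300 genes of that kind were called lower). Over all 60 members, with no test, both R111A libraries were below both WT libraries for 48, where 32.4% of the genes of the table were, and above both for 7, where 29.6% were. The groups overlapped for 5, namely Mybl2, Spc25, Kif20a, Cdca2 and Prc1. With the filter removed, 19 of 60 members were called lower (31.7%), against 4.59% of all 16142 genes (741 genes), and 0 were called higher with limma, against 4.78% of all genes (1 at 2-fold with an unadjusted p under 0.05). By the adjusted p alone, that fit had 32 lower, against 13.4% of all genes, and 2 higher, against 11.8%, and 26 missed the threshold.

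**Figure D1:**
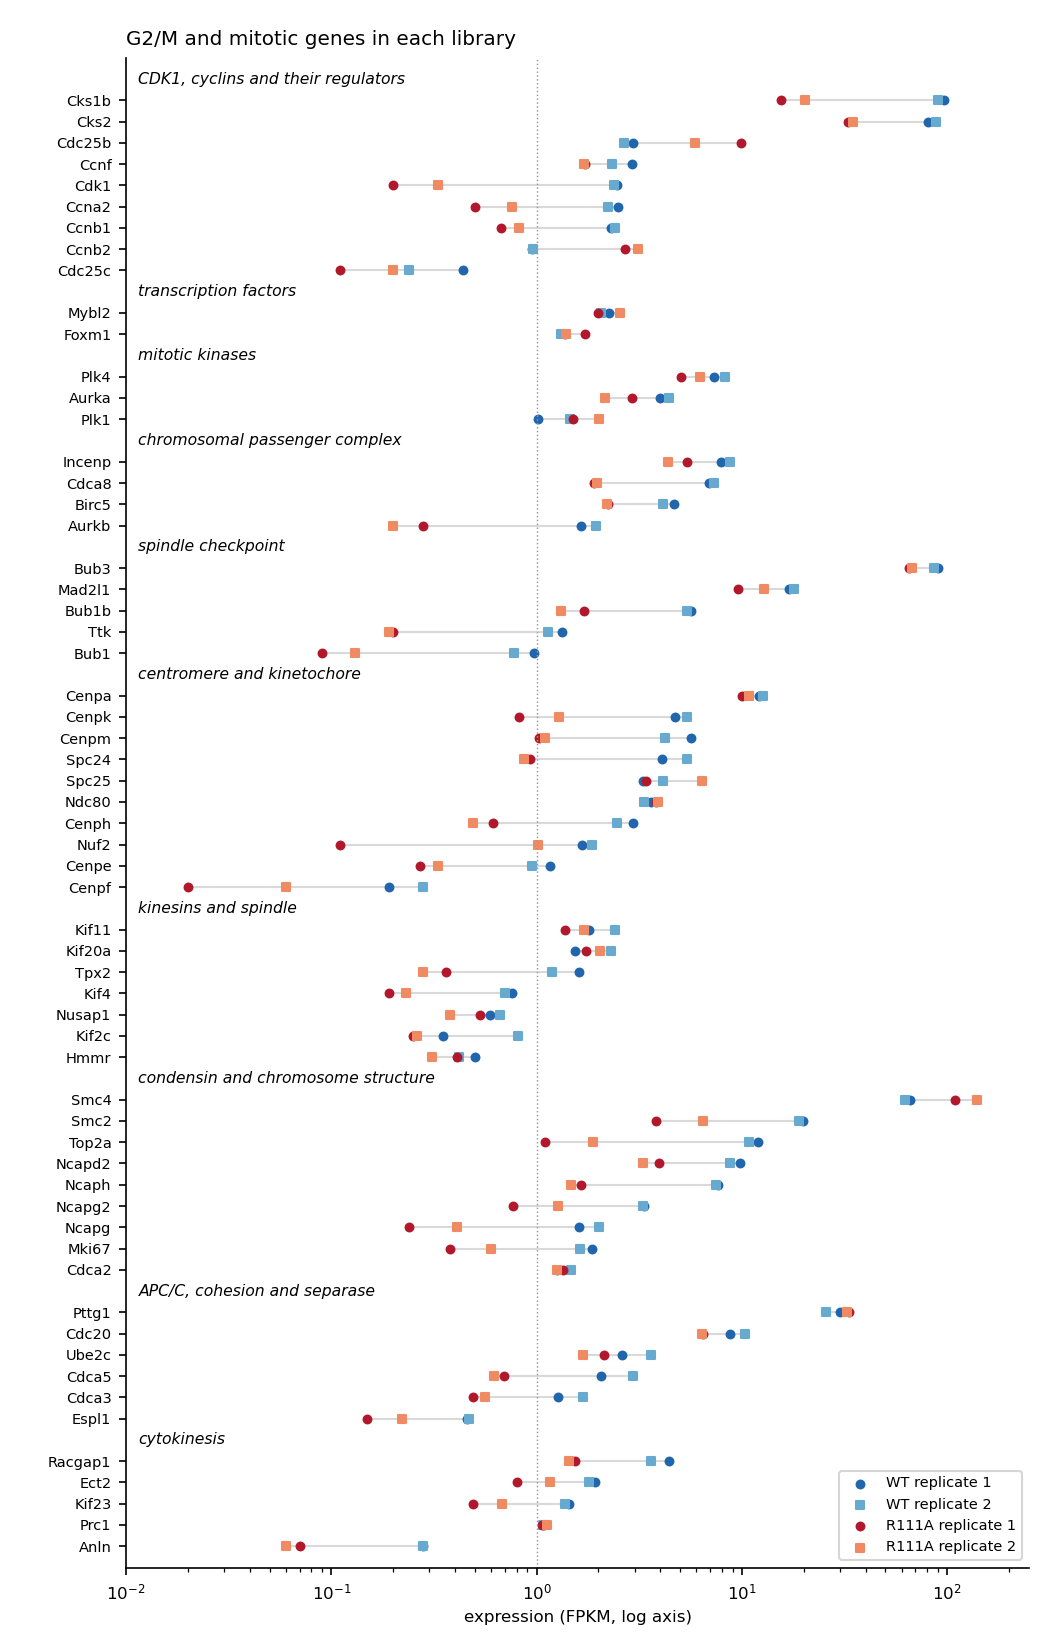
FPKM of the 60 members in each of the 4 libraries on a log axis, grouped by role, with 1 point per library coloured by group and a dotted line at 1 FPKM. The points of both R111A libraries lie below those of both WT libraries for 48 members, above them for 7 and among them for 5.

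The promoters of the members were searched for the letters of the CHR and of NF-Y and E2F sites, elements through which many of these genes are known to be controlled. RefSeq stretches of GRCm38.p6 ran from 250 bases before to 50 after an annotated start. They were matched by gene ID, or by symbol where the ID was not found, for 50 of the 60 members, 4 of them with more than 1 window. There was no entry for Spc24, Aurkb, Smc4, Ccna2, Cdc25c, Cdca2, Kif20a, Incenp, Tpx2 and Foxm1. The letters sought on both strands were TTTGAA and TTCGAA for the CHR (the latter reads the same on both strands), CCAAT for the NF-Y box, and TTCCCGC and TTTGGCGC for E2F. CHR letters were in 37 of the 50 members' promoters (74%), against 17.2% of the 12866 genes of the table with a window. CCAAT was in 37 (74%, against 42.6%), both together were in 32 (64%, against 8.38%), and E2F letters were in 7 (14%, against 9.43%). The stretches printed run from base -140 to base 50 for the members named for their role that had CHR letters (Cdk1, Plk1, Mki67, Top2a and Cks1b), so that genes that moved and a gene that did not pass the test can be read side by side. Ccnb2, which rose, and Cenpm and Ncapg, which carry CHR and E2F letters, were added after their values were seen. Capitals mark the CHR letters and the E2F letters on either strand, and each stretch is written on the strand of its gene: chr10:69352863-69353052 (minus strand) for Cdk1, chr7:122159295-122159484 (plus strand) for Plk1, chr7:135716330-135716519 (minus strand) for Mki67, chr11:99024140-99024329 (minus strand) for Top2a, chr3:89418242-89418431 (minus strand) for Cks1b, chr9:70421505-70421694 (minus strand) for Ccnb2, chr15:82244287-82244476 (minus strand) for Cenpm and chr5:45669785-45669974 (plus strand) for Ncapg.
Cdk1: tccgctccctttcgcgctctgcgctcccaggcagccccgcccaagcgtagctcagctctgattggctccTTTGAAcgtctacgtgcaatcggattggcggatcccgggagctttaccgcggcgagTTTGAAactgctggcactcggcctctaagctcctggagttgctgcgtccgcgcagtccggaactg
Top2a: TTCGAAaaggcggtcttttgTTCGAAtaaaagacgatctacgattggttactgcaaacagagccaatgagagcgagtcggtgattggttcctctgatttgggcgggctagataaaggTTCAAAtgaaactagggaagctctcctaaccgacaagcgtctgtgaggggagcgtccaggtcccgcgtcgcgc
Cks1b: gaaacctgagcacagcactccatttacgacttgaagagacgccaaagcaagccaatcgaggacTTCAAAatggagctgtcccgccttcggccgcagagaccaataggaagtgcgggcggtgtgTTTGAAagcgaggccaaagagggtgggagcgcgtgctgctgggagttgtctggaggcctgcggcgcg
Mki67: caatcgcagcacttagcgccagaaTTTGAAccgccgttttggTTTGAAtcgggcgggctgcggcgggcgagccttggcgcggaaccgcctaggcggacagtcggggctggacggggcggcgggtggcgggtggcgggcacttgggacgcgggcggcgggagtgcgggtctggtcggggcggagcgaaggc
Plk1: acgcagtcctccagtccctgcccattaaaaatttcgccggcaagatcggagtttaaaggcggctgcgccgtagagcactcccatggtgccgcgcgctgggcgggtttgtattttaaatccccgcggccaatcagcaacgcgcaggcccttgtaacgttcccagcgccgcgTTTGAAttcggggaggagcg
Ccnb2: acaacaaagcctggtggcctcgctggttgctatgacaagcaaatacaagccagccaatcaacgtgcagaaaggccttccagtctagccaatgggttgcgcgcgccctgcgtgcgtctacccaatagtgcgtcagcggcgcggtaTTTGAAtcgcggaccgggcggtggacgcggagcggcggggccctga
Cenpm: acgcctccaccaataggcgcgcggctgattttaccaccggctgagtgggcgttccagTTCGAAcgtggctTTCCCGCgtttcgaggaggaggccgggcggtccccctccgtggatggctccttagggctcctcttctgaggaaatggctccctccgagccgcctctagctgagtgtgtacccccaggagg
Ncapg: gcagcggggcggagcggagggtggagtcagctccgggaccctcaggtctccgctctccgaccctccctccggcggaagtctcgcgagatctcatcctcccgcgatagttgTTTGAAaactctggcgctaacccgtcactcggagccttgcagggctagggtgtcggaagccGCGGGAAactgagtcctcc

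In these stretches, Cdk1 has TTTGAA starting at bases -71 and -15, counted from the start on which each RefSeq stretch is set, and Plk1 has it at base 31. That start is not always the outer end of the gene: it lies 437 bases inside the gene for Cenpm, 71 for Mki67, 34 for Ncapg and 10 for Top2a. Top2a has TTCGAA at -140 and -120 and the reverse of TTTGAA at -23. Cenpm has TTCGAA at -83 followed by TTCCCGC at -70, and Ncapg has TTTGAA at -30 and the reverse of TTCCCGC at 32. CHR letters were about as frequent in the members called lower as in the other tested members: 12 of 16 called lower with a window had them (75%), 16 of 23 other tested members (69.6%) and 9 of 11 members below the filter (81.8%), which could not be called. E2F letters were in 6 of the 16 called lower (37.5%), in 1 of the 23 (4.35%), which was Plk4, and in 0 of the 11. The 6 were Cenph, Cenpk, Cenpm, Ncapd2, Ncapg and Ncapg2, of the kinetochore and condensin. Over all genes with a window, E2F letters were in 16.5% of those called lower, 7.27% of those called higher and 11.2% of those tested, and CHR letters were in 17.4%, 20.8% and 16.5%. A match is a run of letters and not a shown binding site, and a window without one says only that these letters are absent from it.

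**Figure D2:**
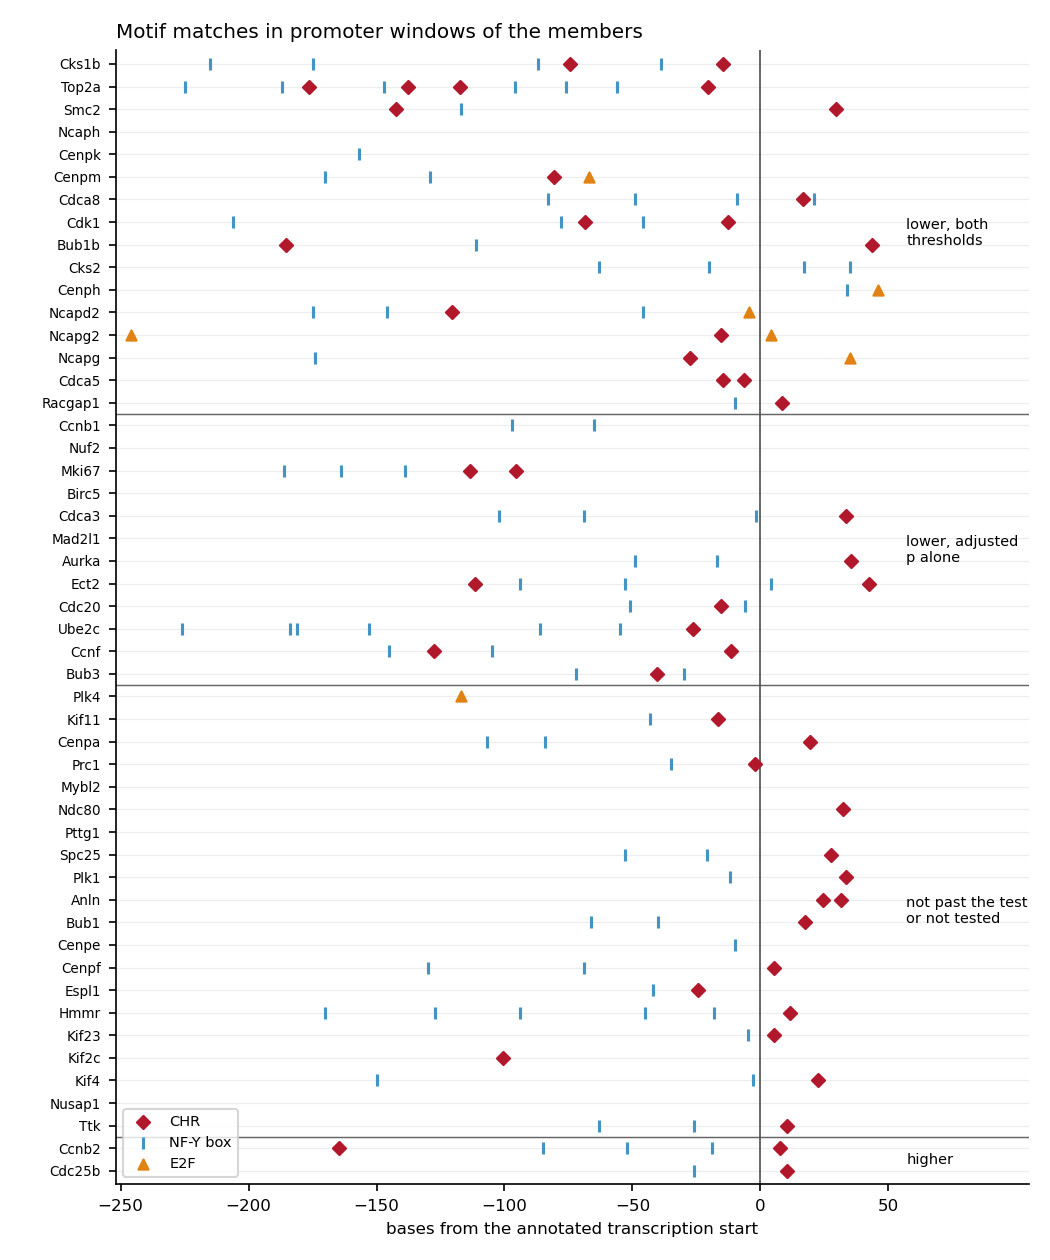
Positions of CHR, NF-Y box and E2F letters in the first RefSeq window of each of the 50 members with one, in bases from the start on which the window is set, with the members ordered by call and then by change, and 1 mark per match. CHR letters lie in 37 of the 50 promoters when all windows are read, and E2F letters in 7, 6 of them in the block of members called lower (those of Cenpk lie in a window that is not drawn).

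Among Cdk1, the cyclins and their regulators, 8 of 9 members were tested. Of these, 4 were called lower, against 8.34% of all genes tested, and 1 higher, against 8.52%. Of the 4, Cdk1 and Ccna2 passed the filter only through the WT mean, so they had to differ to be tested. Cdk1, the kinase that drives mitosis, stood at 2.45 and 2.39 FPKM in WT and 0.20 and 0.33 FPKM in R111A. The R111A libraries were both lower, by 9.13-fold in the mean, and the log2 change was -1.44 ± 0.14 (SE, adjusted p 7.34e-05). Ccna2, cyclin A2, stood at 2.5 and 2.22 FPKM in WT and 0.50 and 0.76 FPKM in R111A. The groups did not overlap, the log2 change was -1.05 (adjusted p 5.55e-04), and it fell short of 2-fold with median-of-ratios factors (-0.97), without WT replicate 1 (-0.99) and without R111A replicate 1 (-0.93). Ccnb1, cyclin B1, stood at 2.30 and 2.4 FPKM in WT and 0.67 and 0.82 FPKM in R111A. No R111A value reached WT, and the log2 change of -0.94 (adjusted p 6.55e-04) was short of 2-fold on this scale but past it under TPM (-1.17), quantile normalization (-1.19), a pseudocount of 0.1 FPKM (-1.54) and without R111A replicate 2 (-1.0). Ccnb1 shares 23.4% of its 50-base runs with transcripts of other genes, most with the pseudogene Ccnb1-ps, so its level is less certain.

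Ccnb2, cyclin B2, the other B-type cyclin of CDK1, went the opposite way, at 0.95 and 0.96 FPKM in WT and 2.69 and 3.11 FPKM in R111A. Each R111A value lay above each WT value, by 3.04-fold in the mean. Its log2 change of 0.99 ± 0.14 (SE, adjusted p 5.37e-04) lay just under 2-fold, and it was past it with median-of-ratios factors (1.08), without R111A replicate 1 (1.07) and with a pseudocount of 0.1 FPKM (1.5). The level of Ccnb2 over that of Ccnb1 was 0.413 and 0.40 in WT and 4.01 and 3.79 in R111A, so the more abundant B-type cyclin transcript was Ccnb1 in both WT libraries and Ccnb2 in both R111A libraries. The promoter of Ccnb2 printed above has TTTGAA at base 5 and 3 CCAAT runs upstream, and another TTTGAA lies at base -167, outside the stretch. Cdc25b, a phosphatase that activates CDK1, stood at 2.93 and 2.66 FPKM in WT and 9.90 and 5.89 FPKM in R111A. The R111A libraries were both higher but unlike each other, and the log2 change was 1.19 ± 0.21 (SE, adjusted p 0.00183). Its call ended under TPM (0.93), without R111A replicate 1 (0.86), with a pseudocount of 5 FPKM (0.71) and with no filter on low values (adjusted p 0.0855). Cdc25c, a related phosphatase, was below the filter, at 0.44 and 0.24 FPKM in WT and 0.11 and 0.20 FPKM in R111A.

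The CDK-binding proteins Cks1b and Cks2, small subunits that dock CDKs to their substrates, were among the 5 most abundant members in WT. Cks1b stood at 96.67 and 90.58 FPKM in WT and 15.55 and 20.20 FPKM in R111A. The groups were apart, with R111A lower, by 5.24-fold in the mean, and the log2 change of -2.34 ± 0.15 (SE, adjusted p 1.36e-05) was close to that of Top2a (-2.33), and these 2 were the lowest of the tested members except with a pseudocount of 0.1 FPKM. Cks2 stood at 80.28 and 88.59 FPKM in WT and 32.77 and 34.87 FPKM in R111A. It was also lower in both R111A libraries (log2 change -1.29, adjusted p 9.17e-05), and 29.7% of its 50-base runs occur in transcripts of other genes. The level of Cks2 over that of Cks1b was 0.830 and 0.978 in WT and 2.11 and 1.73 in R111A, so their order turned. Ccnf, cyclin F, an F-box protein, lay at 2.34 to 2.91 FPKM in WT and 1.71 to 1.72 FPKM in R111A, a log2 change of -0.41 whose adjusted p of 0.0409 rose to 0.365 without WT replicate 1, to 0.0865 without WT replicate 2, to 0.0505 without R111A replicate 1, to 0.0513 without R111A replicate 2, to 0.0953 with median-of-ratios factors and to 0.10 with no filter.

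The transcription factors that drive these genes did not pass the test. Foxm1 stood at 1.37 and 1.32 FPKM in WT and 1.72 and 1.39 FPKM in R111A. Both R111A libraries lay above both WT libraries, replicate 2 only just, and the log2 change of 0.12 had a 95% interval of -0.20 to 0.44 and turned negative under TPM (-0.08) and quantile normalization (-0.05). Mybl2, which encodes B-MYB, stood at 2.25 and 2.06 FPKM in WT and 1.98 and 2.56 FPKM in R111A. The groups overlapped, and the log2 change of 0.05 had an interval of -0.30 to 0.39 and turned negative under TPM (-0.19), quantile normalization (-0.06) and without R111A replicate 2 (-0.08). Mybl2 shares 19.3% of its 50-base runs with transcripts of other genes.

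Of the 3 mitotic kinases outside the other groups, 1 was lower by the adjusted p, against 32.1% of all genes tested. Plk1, which acts at centrosomes and kinetochores, stood at 1.02 and 1.46 FPKM in WT and 1.5 and 2.02 FPKM in R111A. The R111A libraries were above the WT libraries by a margin smaller than the spread within either group, and the log2 change of 0.30 had a 95% interval of -0.07 to 0.68. Its promoter has CHR letters, as that of Cdk1 does. Aurka, the kinase of the spindle poles, stood at 3.99 and 4.42 FPKM in WT and 2.92 and 2.15 FPKM in R111A. Each R111A value lay below each WT value, with a log2 change of -0.57 (adjusted p 0.0162) that missed the threshold without WT replicate 2 (0.121) and with no filter (0.107). Plk4, which starts centriole duplication, had a log2 change of -0.41 (adjusted p 0.0543), which passed under TPM (0.00294), with the replicate block (0.0399), with eBayes without trend (0.0487) and without R111A replicate 2 (0.0121).

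The chromosomal passenger complex corrects chromosome attachment and guides cytokinesis. All 4 of its members were lower by the adjusted p, against 32.1% of all genes tested. Aurkb, its kinase, stood at 1.65 and 1.95 FPKM in WT and 0.28 and 0.20 FPKM in R111A. The R111A libraries were both lower, by 7.5-fold in the mean (log2 change -1.17, adjusted p 2.21e-04). Its mean of 1.02 FPKM over the 4 libraries put it just inside the filter, through the WT mean only, and Kif23, at 0.995 FPKM, was just outside. Cdca8, which encodes Borealin, stood at 6.93 and 7.30 FPKM in WT and 1.90 and 1.96 FPKM in R111A. The libraries within each group were close, and the log2 change was -1.47 ± 0.14 (SE, adjusted p 6.41e-05). Birc5, which encodes Survivin, stood at 4.67 and 4.14 FPKM in WT and 2.23 and 2.21 FPKM in R111A. No R111A value reached WT, with a log2 change of -0.75 (adjusted p 0.00238) that was past 2-fold under TPM (-1.02). Incenp, the scaffold of the complex, stood at 7.93 and 8.70 FPKM in WT and 5.40 and 4.35 FPKM in R111A. It was lower in both (log2 change -0.67, adjusted p 0.00618), and missed the threshold without WT replicate 2 (0.0780) and with no filter (0.0636).

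The spindle checkpoint delays anaphase until chromosomes are attached. Of its 5 members, 3 were tested and 3 were lower by the adjusted p, against 32.1% of all genes tested. Bub1b, which encodes BubR1 of the mitotic checkpoint complex, stood at 5.62 and 5.37 FPKM in WT and 1.71 and 1.32 FPKM in R111A. The groups were apart, with R111A lower, by 3.63-fold in the mean (log2 change -1.37, adjusted p 1.26e-04). Bub3, its partner, stood at 89.79 and 86.29 FPKM in WT and 64.83 and 67.52 FPKM in R111A. Here too both R111A libraries were lower, but the log2 change of -0.41 (adjusted p 0.0229) missed the threshold with median-of-ratios factors (0.0968), quantile normalization (0.290), without WT replicate 1 (0.283) and without WT replicate 2 (0.206), while TPM gave -0.74. Mad2l1, which encodes MAD2, had a log2 change of -0.60 (adjusted p 0.0138), which missed the threshold without WT replicate 1 (0.0723), without WT replicate 2 (0.12) and with no filter (0.11), and which was -0.92 under TPM. The checkpoint kinases Bub1 and Ttk were below the filter. Bub1 stood at 0.97 and 0.78 FPKM in WT and 0.09 and 0.13 FPKM in R111A, and Ttk at 1.33 and 1.14 FPKM in WT and 0.20 and 0.19 FPKM in R111A.

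Of 10 centromere and kinetochore members, 8 were tested, with 4 called lower, against 8.34% of all genes tested. Of the 4, Cenph and Spc24 passed the filter only through the WT mean, so they had to differ to be tested. The NDC80 complex, which grips the microtubule, has 4 subunits, and they did not move together. Spc24 stood at 4.06 and 5.41 FPKM in WT and 0.93 and 0.87 FPKM in R111A. Each R111A value lay below each WT value, by 5.26-fold in the mean (log2 change -1.58, adjusted p 9.07e-05). Spc25, which pairs with Spc24, stood at 3.29 and 4.14 FPKM in WT and 3.39 and 6.4 FPKM in R111A. The groups overlapped, and the log2 change of 0.28 (95% interval -0.26 to 0.82) was 0.66 without R111A replicate 1 (adjusted p 0.0139) and -0.10 without R111A replicate 2. Nuf2 stood at 1.66 and 1.86 FPKM in WT and 0.11 and 1.01 FPKM in R111A. Nuf2 was lower in both R111A libraries, which were far apart, and the log2 change of -0.88 (adjusted p 0.0163) was -0.46 without R111A replicate 1, -1.31 without R111A replicate 2, -1.08 under TPM, -1.06 under quantile normalization, -1.94 with a pseudocount of 0.1 FPKM, and missed the threshold with no filter (0.198). Ndc80, which pairs with Nuf2, stood at 3.59 and 3.35 FPKM in WT and 3.82 and 3.88 FPKM in R111A. Its R111A values lay slightly above WT, with a log2 change of 0.12 (interval -0.20 to 0.43) that turned negative under TPM (-0.15). The level of Spc25 over that of Spc24 was 0.810 and 0.765 in WT and 3.65 and 7.36 in R111A. The level of Ndc80 over that of Nuf2 was 2.16 and 1.80 in WT and 34.7 and 3.84 in R111A.

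Cenph, Cenpk and Cenpm, subunits of the constitutive centromere network, were called lower, with log2 changes of -1.26, -1.57 and -1.51. Cenpm, whose promoter is printed above, stood at 5.62 and 4.22 FPKM in WT and 1.03 and 1.10 FPKM in R111A. Cenpa, the histone H3 variant that marks the centromere, had a log2 change of -0.23 (interval -0.54 to 0.08), which passed the threshold only under TPM (-0.54, adjusted p 0.00851) among the alternatives run. Cenpe, a kinetochore motor, and Cenpf, a large coiled-coil protein, were below the filter, with WT means of 1.055 and 0.235 FPKM and R111A means of 0.30 and 0.0400 FPKM.

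Condensin compacts mitotic chromosomes, and Smc2 and Smc4 form its ATPase pair. All 9 members of the group of condensin and chromosome structure were tested, with 6 called lower, against 8.34% of all genes tested. A further 1, Smc4, was higher by the adjusted p alone, where 21.2% of all genes were. Of the 6 called lower, Ncapg passed the filter only through the WT mean. Smc2 stood at 19.84 and 18.93 FPKM in WT and 3.82 and 6.48 FPKM in R111A. The R111A libraries were both lower, by 3.76-fold in the mean (log2 change -1.76, adjusted p 1.99e-04). Smc4 stood at 65.94 and 62.56 FPKM in WT and 108.80 and 138.85 FPKM in R111A. Each R111A value lay above each WT value, by 1.93-fold in the mean, and the log2 change of 0.93 ± 0.15 (SE, adjusted p 0.00110) was 1.06 with median-of-ratios factors, 1.15 with quantile normalization, 1.10 without R111A replicate 1 and 0.60 under TPM. The level of Smc4 over that of Smc2 was 3.32 and 3.30 in WT and 28.5 and 21.4 in R111A. The other subunits of condensin I and II among the members, Ncapd2, Ncapg, Ncapg2 and Ncaph, were called lower, with log2 changes from -1.74 (Ncaph) to -1.08 (Ncapg). Of these, Ncapg fell short of 2-fold without WT replicate 2 (-0.98) and without R111A replicate 1 (-0.99), and Ncapg2 without R111A replicate 1 (-0.93).

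Top2a, the topoisomerase that untangles sister chromatids, stood at 11.98 and 10.84 FPKM in WT and 1.10 and 1.88 FPKM in R111A. No R111A value reached WT, a gap of 7.66-fold in the mean, with a log2 change of -2.33 ± 0.18 (SE, adjusted p 2.59e-05). Mki67, which coats mitotic chromosomes and marks cycling cells, stood at 1.87 and 1.62 FPKM in WT and 0.38 and 0.60 FPKM in R111A. It was lower in both R111A libraries, and its log2 change of -0.88 (adjusted p 0.00124) was past 2-fold under TPM (-1.09), quantile normalization (-1.18) and a pseudocount of 0.1 FPKM (-1.67). Cdca2, which brings a phosphatase to chromatin at mitotic exit, had a log2 change of -0.04 (interval -0.35 to 0.28), which turned positive with median-of-ratios factors (0.04) and without WT replicate 2 (0.02).

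**Figure D3:**
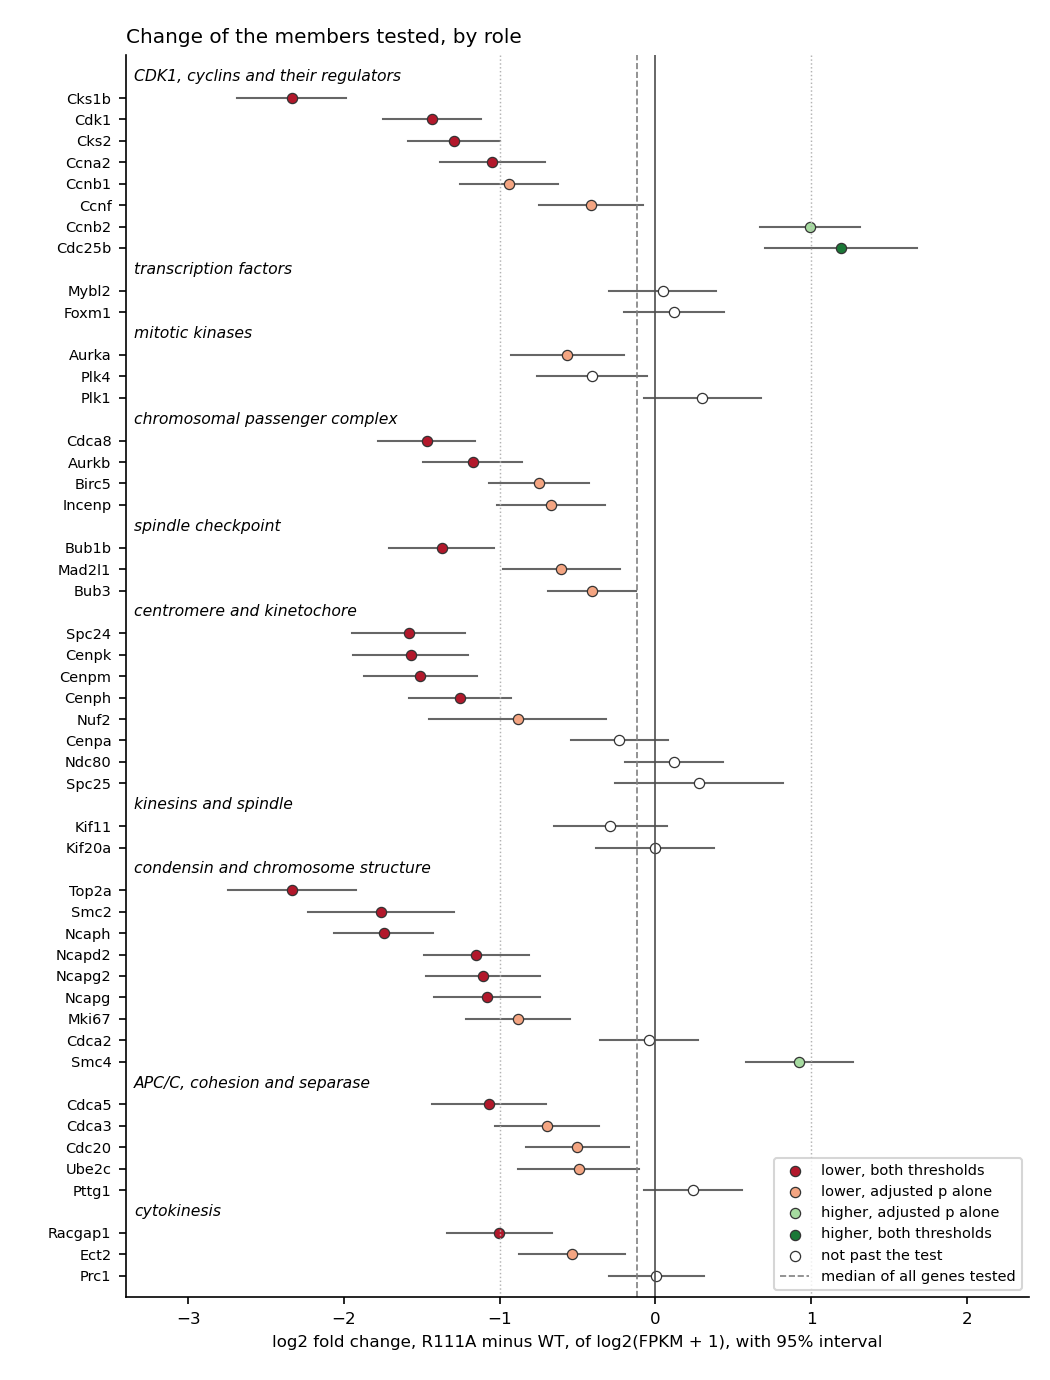
Log2 change, R111A against WT on log2(FPKM + 1), of the 47 tested members ordered within their roles, with bars for the 95% interval, colours for the call, dotted lines at 2-fold and a dashed line at the median of all genes tested. The changes run from -2.34 (Cks1b) to 1.19 (Cdc25b), with 19 called lower and 1 called higher, and the positive sign of Foxm1, Mybl2, Ndc80, Pttg1 and Prc1 turned negative under TPM.

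Among the genes that release sister chromatids, 5 of 6 were tested. Cdca5, which encodes Sororin, the protector of cohesion, stood at 2.06 and 2.94 FPKM in WT and 0.69 and 0.62 FPKM in R111A. The groups were apart, with R111A lower, and the log2 change of -1.07 (adjusted p 7.77e-04) fell short of 2-fold with median-of-ratios factors (-0.99) and without WT replicate 2 (-0.89). Pttg1, which encodes Securin, the inhibitor of separase, stood at 29.99 and 25.59 FPKM in WT and 33.24 and 32.61 FPKM in R111A. The R111A values lay above WT by less than the gap within WT, and the log2 change of 0.24 (interval -0.07 to 0.56) turned negative under TPM (-0.08). Cdca3, an F-box-like protein, was lower (log2 change -0.69, adjusted p 0.00421) and reached 2-fold under quantile normalization (-1.0) and a pseudocount of 0.1 FPKM (-1.32). Cdc20, an activator of the APC/C ubiquitin ligase, had a log2 change of -0.50 (adjusted p 0.0191), which missed the threshold without WT replicate 1 (0.0858), without WT replicate 2 (0.301), with median-of-ratios factors (0.0567) and with no filter (0.0724), and was -0.80 under TPM. Ube2c, the E2 enzyme of the APC/C, had a log2 change of -0.49 (adjusted p 0.0382), which missed it without WT replicate 2 (0.353), without R111A replicate 2 (0.119), with median-of-ratios factors (0.0839) and with no filter (0.179), and was -0.74 under TPM. Espl1, which encodes separase, was below the filter.

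Of 5 cytokinesis members, 3 were tested. Racgap1, of the centralspindlin complex, stood at 4.42 and 3.59 FPKM in WT and 1.54 and 1.44 FPKM in R111A. Each R111A value lay below each WT value, and the log2 change of -1.0 (adjusted p 6.95e-04) fell short of 2-fold with median-of-ratios factors (-0.91), without WT replicate 1 (-0.88) and without R111A replicate 2 (-0.97). Prc1, which bundles the microtubules of the central spindle, stood at 1.09 and 1.07 FPKM in WT and 1.06 and 1.12 FPKM in R111A. The groups overlapped, and the log2 change of 0.01 (interval -0.30 to 0.31) turned negative under TPM (-0.17), quantile normalization (-0.22), without WT replicate 2 (-0.00) and without R111A replicate 2 (-0.01). Ect2, the exchange factor for RhoA, had a log2 change of -0.53 (adjusted p 0.0159), which missed the threshold without WT replicate 1 (0.0792) and with no filter (0.0749). Kif23, the centralspindlin motor, and Anln, a scaffold of the contractile ring, were below the filter.

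Among kinesins and spindle proteins, 2 of 7 were tested and neither passed. Kif11, the motor that separates the spindle poles, stood at 1.80 and 2.42 FPKM in WT and 1.37 and 1.71 FPKM in R111A. Both R111A libraries were lower by a margin smaller than the spread within either group, and the log2 change of -0.29 (interval -0.65 to 0.07) passed under TPM (-0.52) and quantile normalization (-0.44). Kif20a, a motor of the central spindle, stood at 1.54 and 2.29 FPKM in WT and 1.74 and 2.04 FPKM in R111A. The R111A values lay between the WT values, with a log2 change of -0.00 (interval -0.38 to 0.38) that turned positive with median-of-ratios factors (0.09), without WT replicate 2 (0.18), without R111A replicate 1 (0.07) and with a pseudocount of 0.1 FPKM (0.00). Kif20a shares 29.3% of its exon bases with Cdc23 on the opposite strand, and whether reads were counted by strand is not stated. Opposite genes also cover 22.8% of the exon bases of Ube2c, 15.1% of Kif4, 13.4% of Ncapg, 12.7% of Cdc25c, 12.5% of Ccna2 and 11.1% of Prc1, so the levels of these members are less certain. The kinesins Kif2c and Kif4 and the spindle proteins Tpx2, Nusap1 and Hmmr were below the filter. The 13 members below the filter had WT means of 0.235 to 1.41 FPKM and R111A means of 0.0400 to 0.585 FPKM. Both R111A libraries were below both WT libraries for each of the 13, where 32.4% of all genes of the table were. The gap ran from 1.28-fold (Hmmr) to 7.95-fold (Bub1) in the mean. Tested with no filter, 8 of them were lower by the adjusted p, against 13.4% of all genes, among them Ttk (-0.90, adjusted p 0.0142).

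**Figure D4:**
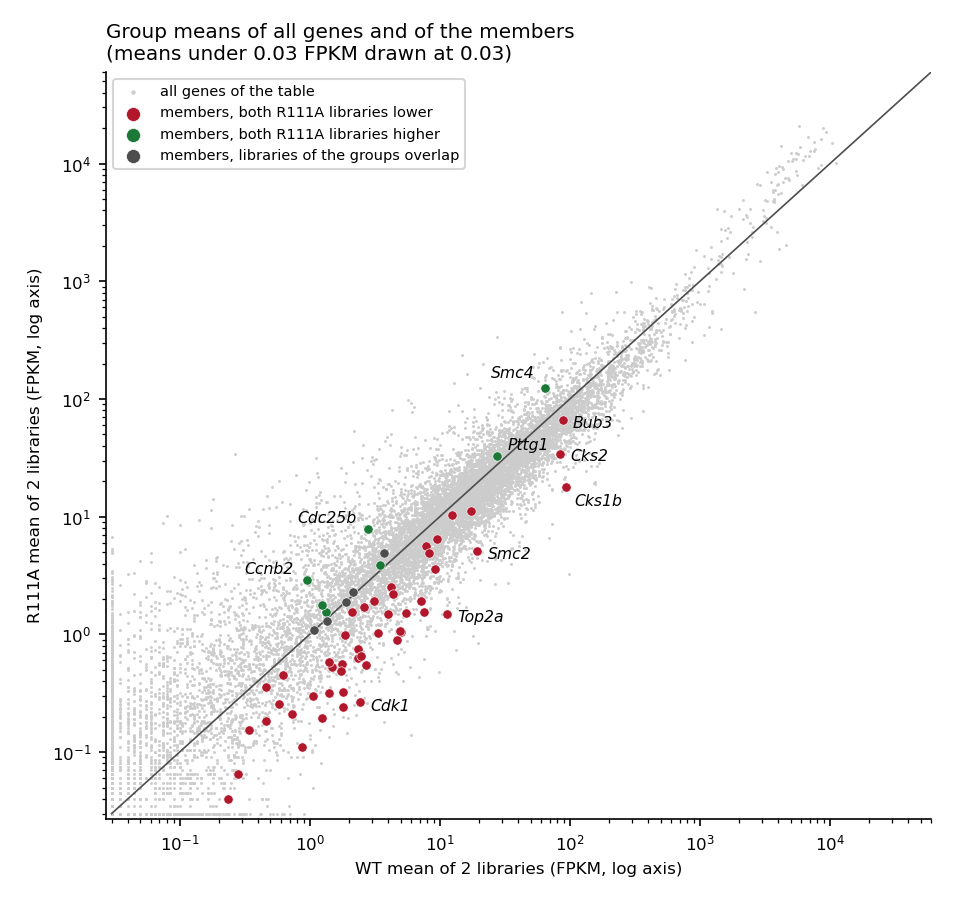
Mean FPKM in R111A against mean FPKM in WT for every gene of the table above 0 in some library, both on log axes, with the 60 members coloured by whether both R111A libraries were lower, higher or overlapped with WT, and a diagonal where the groups are equal. Cks1b (93.6 FPKM in WT, 17.9 in R111A) and Top2a (11.4 and 1.49) lie far below the diagonal, and Smc4 (64.3 and 123.8), Ccnb2 (0.955 and 2.90) and Cdc25b (2.80 and 7.90) above it.

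Of the 35 members past the adjusted p, 35 kept their sign under every alternative run, and 25 passed under every alternative run for them. All 19 called lower kept an adjusted p under 0.05 under every alternative run for them, some with a change under 2-fold, as given for Ccna2, Ncapg, Ncapg2, Cdca5 and Racgap1. The pseudocount moved the changes of low genes most: with 0.1 FPKM 23 members were called lower and their median was -0.95, and with 5 FPKM 4 were and it was -0.35. Of the 12 that missed the threshold, 8 changed sign under some alternative.

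Other genes of mitosis that are not members numbered 110 in the table, of which 87 were tested, with 13 called lower (14.9%, against 8.34% of all genes tested) and 3 higher (3.45%, against 8.52%). Of the 13, 5 (Nsl1, Ska3, Trip13, Pbk and Shcbp1) had an R111A mean under 1 FPKM and passed the filter only through WT. The 14.9% thus includes genes that had to differ to pass. Both group means were at least 1 FPKM for 79 of the 87. Those called lower among the 79 are the 13 without these 5. That share is not far above the 8.09% of all genes of that kind that were called lower. By the adjusted p alone 38 were lower, against 32.1% of all genes, and 12 higher, against 21.2%, 37 missed the threshold, and the median log2 change was -0.34. The symbols Casc5, Sgol1, Sgol2a and Fam64a were not in the table, which lists these genes under newer names. Medians by group ran from -0.75 for regulators of entry and exit (11 tested) through -0.56 for other spindle and cytokinesis genes (14), -0.38 for other kinetochore genes (22), -0.28 for cohesin (11), -0.23 for APC/C subunits (16) and -0.17 for the condensin II subunits Ncapd3 and Ncaph2 to -0.01 for MuvB and DREAM (11). The 2 condensin II subunits missed the threshold: Ncaph2 stood at 64.20 and 69.85 FPKM in WT and 63.90 and 53.99 FPKM in R111A (log2 change -0.19, 0.05 under quantile normalization, -0.52 and past the threshold under TPM, and -0.31 and past it without R111A replicate 1), and Ncapd3 (11.73 and 10.75 FPKM in WT, 9.55 and 10.38 in R111A) had a log2 change of -0.16, which was -0.47 and past the threshold under TPM.

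Among the regulators of entry and exit, Trip13, an ATPase that disassembles the checkpoint complex, stood at 7.87 FPKM in both WT libraries and at 0.80 and 1.12 FPKM in R111A. It was lower in both R111A libraries, with a log2 change of -2.18 (adjusted p 1.48e-05). Gtse1, a microtubule-binding protein that also restrains p53, stood at 3.46 and 2.77 FPKM in WT and 31.80 and 28.78 FPKM in R111A. It was higher in both, by 9.72-fold in the mean (log2 change 2.93, adjusted p 4.92e-06). Psrc1, a spindle protein, stood at 5.28 and 6.21 FPKM in WT and 100.47 and 95.65 FPKM in R111A. It too was higher in both, by 17.1-fold in the mean (log2 change 3.88, adjusted p 2.73e-06), while Shcbp1, of the midbody, was lower (2.21 and 2.74 FPKM in WT, 0.53 and 0.43 in R111A, log2 change -1.23). In the kinetochore, Dsn1 of the MIS12 complex was lower (6.60 and 7.78 FPKM in WT, 2.10 and 2.68 in R111A, log2 change -1.27), and Cenpl was higher (2.27 and 3.05 FPKM in WT, 6.19 and 8.16 in R111A, log2 change 1.16, but 0.90 under TPM and 0.98 without R111A replicate 2, and with adjusted p 0.0520 when no filter was used). Tfdp1, the partner of E2F proteins, stood at 125.73 and 130.30 FPKM in WT and 29.29 and 31.67 FPKM in R111A. It was lower in both (log2 change -2.04, adjusted p 1.09e-05) and lowest of the MuvB and DREAM genes, where E2f5 (12.67 and 15.37 FPKM in WT, 14.83 and 19.41 in R111A) had a change of 0.26, short of the threshold, negative under TPM (-0.05) and past the threshold without R111A replicate 1 (0.45).

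In cohesin and the APC/C, the extremes were modest. Anapc1, the largest APC/C subunit (26.54 and 23.58 FPKM in WT, 13.70 and 14.12 in R111A), had a log2 change of -0.80 (adjusted p 0.00144). Anapc16 (30.27 and 33.18 FPKM in WT, 46.28 and 47.11 in R111A) had a log2 change of 0.54 (adjusted p 0.00755). Its log2 change was 0.22 under TPM, 0.48 without WT replicate 1 and 0.61 without WT replicate 2, each short of the adjusted p threshold. Mau2, which loads cohesin (13.72 and 14.22 FPKM in WT, 20.56 and 21.64 in R111A), had a log2 change of 0.56 (adjusted p 0.00733). Its log2 change was 0.25 under TPM, 0.54 without WT replicate 1 and 0.59 without WT replicate 2, each again short of that threshold. Smc3, of the cohesin ring (45.92 and 42.92 FPKM in WT, 24.88 and 36.67 in R111A), had a log2 change of -0.54 (adjusted p 0.0355) that missed the threshold with median-of-ratios factors (-0.41), quantile normalization (-0.38), no filter (adjusted p 0.214), without WT replicate 1 (-0.49) and without WT replicate 2 (-0.59).

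A hand-written list of the G2 checkpoint and of CDK1 restraint had 12 genes in the table (Rprm was not), all tested. Of these, 2 were called lower (16.7%, against 8.34% of all genes tested) and 7 higher (58.3%, against 8.52%). The median log2 change was 1.62. The 7 include Ccng1, Ccng2 and Btg2. By the adjusted p alone 3 were lower, against 32.1% of all genes, and 8 were higher, against 21.2%, and 1 missed the threshold. Cdkn1a, which encodes the CDK inhibitor p21, stood at 14.29 and 15.45 FPKM in WT and 266.09 and 206.54 FPKM in R111A. Both R111A libraries were higher, by 15.9-fold in the mean (log2 change 3.89, adjusted p 2.73e-06). Chek1, the kinase that blocks CDC25 after DNA damage, stood at 14.69 and 15.67 FPKM in WT and 2.20 and 3.72 FPKM in R111A. The R111A libraries were both lower (log2 change -2.06, adjusted p 6.64e-05), and Wee1 was lower as well (-2.05). Wee1 and Pkmyt1 count both in this list and among the other mitosis genes. Pkmyt1 was lower by the adjusted p alone (log2 change -0.55, adjusted p 0.0298). It missed the threshold with median-of-ratios factors (adjusted p 0.0812), quantile normalization (0.0593) and no filter (0.176). Genes of this list thus moved apart: transcripts of Wee1, Chek1 and Pkmyt1 were lower, and those of Cdkn1a, Gadd45a and Gadd45b were higher. Wee1, Pkmyt1, Gadd45a (log2 change 1.54) and Gadd45b (2.64) were picked for naming after their values were seen.

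A list of genes of DNA replication, here called replication licensing, served as a comparison. Of 23 genes tested, 15 were called lower (65.2%, against 8.34% of all genes tested), 3 of them with an R111A mean under 1 FPKM (Mcm10, Cdc6 and Orc1). By the adjusted p alone 19 were lower, against 32.1% of all genes, and 1 higher, against 21.2%, and 3 missed the threshold. The median log2 change was -1.33, against -0.69 for the G2/M members, and the difference between the lists was not tested. The median WT level was 37.6 FPKM for this list and 2.46 FPKM for the members. The added 1 shrinks changes more at low levels, so the 2 medians are not directly comparable. Mcm5, of the replicative helicase, stood at 157.89 and 155.34 FPKM in WT and 19.60 and 19.84 FPKM in R111A. No R111A value reached WT (log2 change -2.93, adjusted p 3.04e-06). Orc5, of the origin recognition complex (22.68 and 26.30 FPKM in WT, 29.80 and 38.10 in R111A), had a log2 change of 0.45 (adjusted p 0.0429). It missed the threshold with no filter (adjusted p 0.177) and under TPM (log2 change 0.13). It also missed it without WT replicate 1, WT replicate 2 or R111A replicate 2, with log2 changes of 0.35, 0.55 and 0.28. E2F letters were in 10 of the 18 licensing promoters with a window (55.6%) and CHR letters in 6 (33.3%). CHR letters were in 41 of the 89 other mitosis promoters (46.1%) and in 0 of the 10 G2 restraint promoters.

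**Figure D5:**
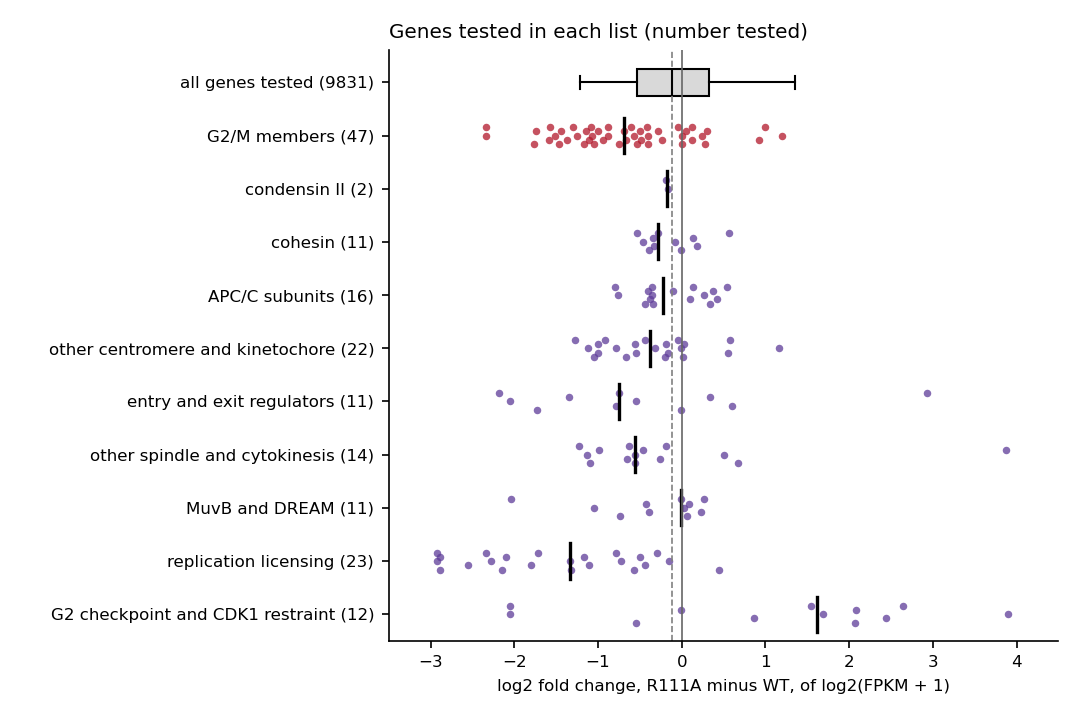
Log2 change, R111A against WT, of each tested gene of the G2/M members, the groups of other mitosis genes, replication licensing and G2 restraint, with 1 point per gene, a bar at each median and a dashed line at the median of all genes tested (-0.12). The box for all genes spans the quartiles, with whiskers at percentiles 5 and 95, and the medians are -0.69 for the members, 1.62 for G2 restraint and -1.33 for licensing.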

How the data were processed

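RNA-seq of 2 WT and 2 R111A libraries was used. The authors aligned polyA reads to mm10 with Bowtie2 (version 2.4.4), estimated expression with RSEM (version 1.2.28) and deposited 1 table of FPKM values, in which 1694 of 16142 genes were at 0 in all 4 libraries. Counts were not used, so depth is known only from steps between 0.1 and 0.6 FPKM.

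Log2(FPKM + 1) was tested with limma (version 3.58.1, R 4.3.3), eBayes with trend and Benjamini-Hochberg adjustment over 9831 genes (mean FPKM of 1 or more), and read for the members. The procedure was tested on simulated data. Roles, the other mitosis, G2 restraint and licensing lists and the marker lists were written by hand. The members and lists were chosen with earlier results of these data known. Values in every library were to be given for 12 members named for their role, for the lowest and highest change in each role and list, for each member that rose and for Zc3h12a, and other genes named with values were chosen after these were seen. RefSeq promoters of GRCm38.p6 were matched by gene ID, or by symbol where the ID was not found, and searched as plain letters. Shared sequence and overlapping exons were read from GENCODE vM21 transcripts.

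The alternatives were pseudocounts of 0.1 and 5 FPKM, no filter or one at 5 FPKM, TPM, median-of-ratios factors, quantile normalization, the sample number as a replicate block, eBayes without trend or robust, no fold threshold, and each library left out in turn. Proteins of Cks1b and Cks2 were planned and are not shown. A planned marker gene, and the sum that includes it, are not reported here.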

Additional observations from a re-analysis of the deposited data

How the results depend on the processing

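With 2 libraries in a group, each left-out library leaves 1 that is assumed to vary like the other group. FPKM hold no counts, and values near 0 rest on few reads. A filter at 5 FPKM leaves 14 members, and a pseudocount of 5 FPKM shrinks every low gene, so fewer calls follow from how these 2 are built. The cause of the other shifts was not tested. Sample numbers pair nothing known to be shared (correlation r 0.11 over genes of the deviations of the sample 1 libraries), and with the replicate block 821 genes were called lower and 841 higher, with 19 and 1 members.

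All genes called lower numbered 402 with a pseudocount of 5 FPKM and 1749 under TPM, and all called higher 386 with that pseudocount and 521 with a filter at 5 FPKM. Members called lower numbered 23 with a pseudocount of 0.1 FPKM, 4 with one of 5 FPKM, 5 with a filter at 5 FPKM (9 by the adjusted p alone) and 32 with no fold threshold. Members called higher numbered 2 with a pseudocount of 0.1 FPKM, 0 with one of 5 FPKM, 0 with no filter, 0 under TPM, 3 with median-of-ratios factors, 2 with quantile normalization, 3 with no fold threshold and 1 to 2 with a library left out. The members' median of -0.69 became -0.95 and -0.35 with pseudocounts of 0.1 and 5 FPKM, -0.60 with no filter, -0.55 with a filter at 5 FPKM, -0.97 under TPM, -0.63 with median-of-ratios factors, -0.81 with quantile normalization and -0.74 to -0.61 with a library left out.

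Of 784 values of the 58 genes named by the rule, 716 kept direction and side of the threshold, 38 lost the threshold, 11 gained it and 19 turned direction, in 9 genes. None of the 9 passed the test as reported. Under TPM, Foxm1 was at -0.081, Mybl2 at -0.19, Pttg1 at -0.084, Prc1 at -0.17 and E2f5 at -0.050. With quantile normalization, Foxm1 was at -0.049, Mybl2 at -0.062, Prc1 at -0.22, Ncaph2 at 0.046 and Il2ra at 0.13. With median-of-ratios factors, Kif20a was at 0.086 and Il2ra at 0.025, and with a pseudocount of 0.1 FPKM Kif20a was at 0.0033. With a library left out, Mybl2 lay between -0.082 and 0.17, Spc25 between -0.097 and 0.66, Kif20a between -0.19 and 0.18 and Prc1 between -0.014 and 0.027.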

Other observations

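Cdc25a, the CDC25 phosphatase of S phase and G2, stood at 21.50 and 21.03 FPKM in WT and 5.92 and 5.54 FPKM in R111A. Both R111A libraries were lower, opposite to Cdc25b, with a log2 change of -1.73 (adjusted p 2.90e-05). Zwint, a kinetochore protein that binds KNL1, stood at 124.28 and 130.25 FPKM in WT and 168.51 and 208.14 FPKM in R111A. Both R111A libraries were higher, with a log2 change of 0.55 (adjusted p 0.0106). Zwint missed the threshold under TPM (log2 change 0.22) and with no filter (adjusted p 0.0841). It also missed it without WT replicate 1 (log2 change 0.52) and without WT replicate 2 (log2 change 0.59). Both genes are of the other mitosis list and were chosen after their values were seen.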
